A study of Rattus norvegicus with 6 samples.

Results

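The genes that carry proteins into mitochondria and help to assemble them there were followed in rat beta cells across a 24 h fast. They were taken by symbol: every gene named TIMM or TOMM with a number, together with SAMM50, MTX1, MTX2, IMMT, GFER, DNAJC19, GRPEL1, HSPA9, PAM16, PMPCA and PMPCB. Of 14217 genes that had a probe set (a group of short probes against 1 transcript) with a single symbol, 34 were members, and 50 probe sets measured them. The brightest probe set stood for each gene. TIMM23, the channel of the presequence translocase, and CHCHD4, the oxidoreductase of the intermembrane space, share their probe sets with related genes or pseudogenes and were therefore not members.

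Beta cells had been sorted by fluorescence (FACS) from male Wistar rats aged 10 weeks, which either ate freely (fed) or went without food for 24 h (fasted). Each group had 3 isolates, an isolate pooled 5 rats, and 1 array was hybridized per isolate. The sorted rat beta cells were 92 ± 3% insulin-positive, RNA of all isolates was extracted together, and its integrity number was at least 8. No transgene or drug is named for either group. Because whole isolates were measured, fewer cells of a type and less RNA per cell cannot be told apart.

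Nearly all mitochondrial proteins are encoded in the nucleus, made in the cytosol and imported as unfolded precursors through the TOM complex of the outer membrane. The SAM complex then inserts barrel proteins into the outer membrane, the small TIM chaperones and the TIM22 complex bring carriers to the inner membrane, and the TIM23 complex with its HSP70 motor pulls presequence proteins into the matrix, where a peptidase removes the presequence. In beta cells the respiratory chain built from these precursors supplies the ATP that couples glucose to insulin release.

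The deposited values were linear intensities. A log2 change is the log2 of fasted over fed intensity, fitted with limma and given with its standard error (SE), after values under 3.27 (the 10th percentile) had been raised to it. A gene is called lower or higher where limma's two-sided unadjusted p was under 0.05, and p adjusted by Benjamini-Hochberg over 31042 probe sets stands beside it. Precision is limited by the number of arrays: an exact permutation test of 3 against 3 cannot give a p below 0.10. The median intensity was 20.2 to 21.8 on the fed arrays and 17.1, 17.8 and 21 on fasted replicates 1, 2 and 3, and the median log2 change of all genes was -0.19.

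All 7 measured beta cell markers were brighter than the median probe set, and their summed intensity was 23603 to 24768 in fed and 22725 to 24166 in fasted isolates. INS1, INS2 and IAPP carried most of this sum. They read 5686 to 7078, near the highest intensity on an array (7000 to 7629), and saturation of such probe sets was not tested. MAFA was lower after fasting (log2 change -0.34, limma's unadjusted p = 0.0419), and the other 6 beta cell markers were not called. RNA of other cells was also present. The 14 measured acinar markers were all bright, with sums of 65960 to 71795 in fed and 61505 to 70118 in fasted isolates. Some of these were also near the highest intensity, such as CPB1 at 6514 to 7267. Markers of alpha, delta and PP cells summed to 10232 to 17930 and 13322 to 13543. The 5 duct markers summed to 388 to 440 in fed and 463 to 552 in fasted isolates, so that this sum moved with the groups. Of these, KRT19, a keratin of duct cells, was higher after fasting (log2 change 0.70, limma's unadjusted p = 0.00275), as was KRT7 (0.37, unadjusted p = 0.0329), while MUC1, CFTR and SPP1 were not called and CFTR was dimmer than the median probe set. Over all arrays the endothelial markers summed to 155 to 333, the fibroblast markers to 145 to 417 and the immune markers to 116 to 275. Brighter than the median probe set were 5 of 8 endothelial, 3 of 6 fibroblast and 3 of 8 immune markers, with PLVAP at up to 130, COL3A1 at up to 208 and CD74 at up to 103, whereas VWF, PDGFRA and PTPRC were dimmer. The part of these cells in the changes described here was not tested.

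In beta cells of fasted rats, transcripts of 9 import genes were lower and 0 were higher. The 9 stand at several steps of the pathway: TOMM6, TOMM7 and TOMM70 at the entry gate, MTX1 and IMMT in outer and inner membrane organization, TIMM10B among the small chaperones, and TIMM17A, DNAJC19 and TIMM44 in the presequence translocase and its motor. The entry receptors TOMM20 and TOMM22, the pore TOMM40 and the motor's nucleotide exchange factor GRPEL1 had log2 changes between 0.02 and 0.09. The 9 lower genes are 26.5% of the 34, beside 14.9% of all genes that were lower at the same threshold, and the absence of higher ones stands beside 3.64%. Of the 31 members brighter than the median probe set, 8 (25.8%) were lower, beside 19.5% of the 9198 genes of that brightness. The gap was thus smaller among bright genes. With a fold of at least 1.5 added, 3 of the 34 members (MTX1, TIMM10B and TIMM44) were lower, which is 8.82% beside 9.51% of all genes, and 0 were higher beside 2.29%. The count past the fold threshold was thus near the background.

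All 3 fasted values lay below all 3 fed values for 13 members (38.2%), beside 21.2% of all genes. The opposite order was found for 1 member, GFER (2.94%), beside 5.76% of all genes. The log2 change was negative for 24 members (70.6%) and positive for 10, beside 9521 and 4696 of all 14217 genes. Its median was -0.13, with quartiles of -0.37 and 0.02, beside the -0.19 of all genes. After adjustment 0 members passed a p of 0.05 in limma, against 9 before it, and the smallest adjusted p, that of TOMM7, was 0.155. Of the 25 members without a call, 13 had a 95% interval that stayed within 1.5-fold in either direction, whereas for the other 12 the interval reached 1.5-fold in at least 1 direction.

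**Figure D1:**
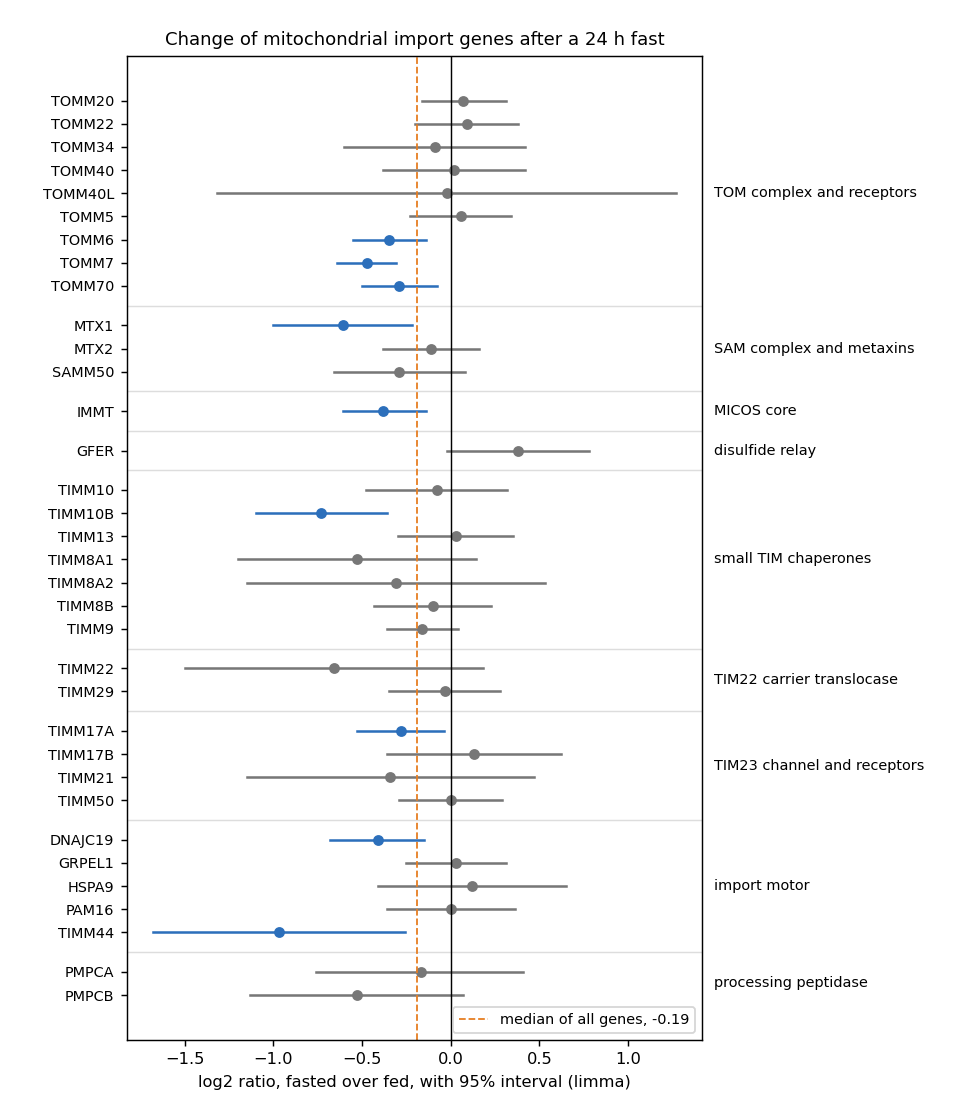
Log2 ratio of fasted over fed intensity for each of the 34 import genes, grouped by role, with 95% intervals from limma (3 arrays per group). Blue marks the 9 genes lower at unadjusted p under 0.05, grey the 25 others, and the dashed line is the median of all genes, -0.19. TOMM7 has a narrow interval from -0.64 to -0.31, while TOMM40L spans -1.32 to 1.27.

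The TOM complex is the entry gate. TOMM7, a small subunit that tunes the assembly of the complex and also stabilizes the kinase PINK1 on damaged mitochondria, had intensities of 1020, 1001 and 1059 on the fed arrays and 712, 736 and 768 on the fasted arrays. The groups were far apart relative to their spread, with a mean of 1027 ± 29.4 against 739 ± 27.8 (SD, n = 3 each). The log2 change of TOMM7 was -0.47 (SE 0.07), with limma's unadjusted p = 0.00035 and adjusted p = 0.155. TOMM6, another small subunit that stabilizes the complex, read 375, 361 and 390 in fed and 274, 299 and 312 in fasted isolates. Its groups did not overlap either, and its log2 change was -0.35 (SE 0.09, limma's unadjusted p = 0.006, adjusted p = 0.219).

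TOMM70 is the receptor that takes carrier precursors from HSP70 and HSP90. Its brightest probe set gave 246, 262 and 280 in fed and 216, 210 and 218 in fasted isolates, a log2 change of -0.29 (SE 0.09, limma's unadjusted p = 0.0142, adjusted p = 0.266). Its other probe set did not follow, with 250, 203 and 217 in fed and 237, 222 and 228 in fasted isolates (log2 change 0.04). With the mean of both probe sets the change of TOMM70 was -0.12 and was no longer called (limma's unadjusted p = 0.191), as was also the case without fed replicate 3 (unadjusted p = 0.053).

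The remaining members of the gate gave no call. TOMM20, the presequence receptor, read 1188, 1236 and 1155 in fed and 1421, 1169 and 1189 in fasted isolates. The high value of fasted replicate 1 stood alone, and the 95% interval of the log2 change, -0.16 to 0.31, left out a 1.5-fold change in either direction. The second probe set of TOMM20 had a log2 change of 0.04. TOMM22, the central receptor, read 186, 190 and 188 in fed and 173, 225 and 208 in fasted isolates, a log2 change of 0.09. Only fasted replicate 1 was below the fed arrays, and without it TOMM22 was called higher, at 0.20 (limma's unadjusted p = 0.0351). The log2 changes were 0.02 for the pore TOMM40 and 0.06 for the small subunit TOMM5. They were -0.09 for TOMM34, a cytosolic cochaperone of precursors, and -0.02 for TOMM40L, a relative of the pore whose probe set was dimmer than the median one.

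Promoters of import genes are known for the letters bound by NRF1 and by ETS family factors such as GABP, which are regulators of nuclear genes for mitochondria. In RefSeq's promoters of assembly GRCr8 (250 bases before to 50 after each start), 31 of the 34 members had an entry. The letters GCGCANGCG (NRF1) stood on either strand in 5 of these 31 promoters (16.1%), beside 11.2% of 11701 promoters of genes on the array and 6.26% of all 27457 promoters. The letters CCGGAAG (ETS family) stood in 11 of 31 (35.5%), beside 15% and 9.22%. AAGATGGCG (YY1) was found in 2 of 31 (6.45%), beside 3.14% and 1.93%, and TGACGTCA (CREB/ATF) in 0 of 31, beside 2.85% and 1.91%. Median GC content was 58.3% for the members, 60.0% for genes on the array and 52.3% for all promoters. Of the 8 lower members with an entry, 1 held the NRF1 letters and 2 the ETS letters, whereas of the 23 others 4 and 9 did. Lower and other members thus both included promoters with these letters.

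The 250 bases before the start are shown for 4 members to set promoters of lower genes beside those of genes without a call. TOMM7 (chr4:12197253-12197502, plus strand) and GRPEL1 (chr14:78522869-78523118, minus strand) both hold NRF1 letters on both strands, overlapping each other by all but 1 base and beginning 33 and 32 bases before the start in TOMM7 and 32 and 31 in GRPEL1. TOMM7 was lower and GRPEL1 was not called. TOMM70 (chr11:56886277-56886526, minus strand) and TOMM20 (chr19:71832421-71832670, minus strand) are receptors with the ETS letters. In TOMM70 these begin 90 and 18 bases before the start. In TOMM20 they begin at 28 bases, with NRF1 letters at 103. Sequences run 5′ to 3′ on the strand of the gene, and capitals mark the NRF1 and ETS letters on either strand.
TOMM7: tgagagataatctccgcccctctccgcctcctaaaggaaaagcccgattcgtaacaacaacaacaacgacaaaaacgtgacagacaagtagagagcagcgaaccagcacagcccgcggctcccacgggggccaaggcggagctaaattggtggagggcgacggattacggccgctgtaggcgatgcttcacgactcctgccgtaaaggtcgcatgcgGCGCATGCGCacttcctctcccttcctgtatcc
GRPEL1: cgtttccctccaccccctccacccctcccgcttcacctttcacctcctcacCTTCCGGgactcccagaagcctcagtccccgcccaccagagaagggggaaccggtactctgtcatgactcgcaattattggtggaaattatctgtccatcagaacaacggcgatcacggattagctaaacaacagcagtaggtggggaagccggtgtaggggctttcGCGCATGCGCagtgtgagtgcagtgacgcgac
TOMM70: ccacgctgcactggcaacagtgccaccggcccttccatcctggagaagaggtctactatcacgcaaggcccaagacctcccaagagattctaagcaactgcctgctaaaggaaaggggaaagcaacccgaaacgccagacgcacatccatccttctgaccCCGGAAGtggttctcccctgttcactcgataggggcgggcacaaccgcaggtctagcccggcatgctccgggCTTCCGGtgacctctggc
TOMM20: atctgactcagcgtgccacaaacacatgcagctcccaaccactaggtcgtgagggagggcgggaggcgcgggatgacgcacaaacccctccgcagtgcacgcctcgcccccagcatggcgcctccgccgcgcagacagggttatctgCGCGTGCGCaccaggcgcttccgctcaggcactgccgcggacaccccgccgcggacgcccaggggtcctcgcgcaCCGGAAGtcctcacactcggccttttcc

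Behind the gate, the SAM complex places barrel proteins such as TOMM40 and the VDAC channels in the outer membrane. MTX1, metaxin 1, a cytosol-facing partner of this complex, read 102, 82.9 and 98.6 in fed and 53.1, 65.8 and 67 in fasted isolates. All fasted values were below all fed values, with a mean of 94.4 ± 10 against 62 ± 7.7 (SD, n = 3 each) and a log2 change of -0.61 (SE 0.16). Limma gave an unadjusted p = 0.00824 and an adjusted p = 0.23. The dimmer probe set of MTX1 did not follow, with 61.2, 63.3 and 61.7 in fed and 53.7, 64.3 and 80.8 in fasted isolates (log2 change 0.07). Over both probe sets the change of MTX1 was -0.27 and was not called (limma's unadjusted p = 0.148).

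SAMM50, the barrel that does the inserting, read 160, 150 and 162 in fed and 104, 143 and 142 in fasted isolates. Its groups did not overlap, but fasted replicate 1 was far below the other fasted arrays, and the log2 change of -0.29 was not called (limma's unadjusted p = 0.105). MTX2, the partner of MTX1, read 221, 199 and 223 in fed and 178, 203 and 219 in fasted isolates, which overlapped (log2 change -0.11). IMMT, also called MIC60 or mitofilin, is the core of the MICOS complex that holds cristae junctions and touches the SAM complex. It read 427, 376 and 442 in fed and 303, 316 and 339 in fasted isolates. Every fasted array was below every fed array, and the log2 change was -0.38 (SE 0.10, limma's unadjusted p = 0.00717, adjusted p = 0.225). The other 2 probe sets of IMMT were dimmer and had negative log2 changes too, -0.67 and -0.63, without a call. With the mean of all 3 the change of IMMT was -0.56 and missed the threshold (limma's unadjusted p = 0.0548).

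In the intermembrane space, GFER is the sulfhydryl oxidase that keeps the CHCHD4 relay oxidized so that small cysteine-rich proteins fold there. It was the only member whose fasted values were all above the fed ones, with 41.9, 38.3 and 43.3 in fed and 58.2, 47.9 and 55 in fasted isolates. Means were 41.2 ± 2.6 and 53.7 ± 5.27 (SD, n = 3 each). The log2 change of 0.38 (SE 0.17) missed the threshold in limma (unadjusted p = 0.0613, adjusted p = 0.351).

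The small TIM chaperones are among the proteins folded by this relay, and they escort carriers and barrel proteins across the intermembrane space. TIMM10B, which sits on the TIM22 complex, read 150, 110 and 129 in fed and 84.7, 74.7 and 74.3 in fasted isolates. The lowest fed array was above the highest fasted array, and the means were 130 ± 20.1 and 77.9 ± 5.91 (SD, n = 3 each). Its log2 change was -0.73 (SE 0.15), with limma's unadjusted p = 0.00279 and adjusted p = 0.192. A dimmer probe set of TIMM10B moved the same way, from 33.6, 26.4 and 31.2 in fed to 12.3, 10.7 and 20.8 in fasted isolates (log2 change -1.12, limma's unadjusted p = 0.0179). TIMM10B was the only one of the 9 lower members that was called in all 17 alternative processings that were run.

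TIMM10B's partners TIMM9 and TIMM10 form the hexamer that carries precursors to TIM22. TIMM9 read 228, 227 and 225 in fed and 194, 212 and 203 in fasted isolates. The fed values were nearly equal and all above the fasted ones, while the log2 change was -0.16 (limma's unadjusted p = 0.0966). TIMM10 overlapped between the groups, with a log2 change of -0.08. TIMM8A1, the rat counterpart of the human deafness-dystonia gene, read 26.9, 30.6 and 22.6 in fed and 17.6, 16.1 and 21.8 in fasted isolates. Its groups did not overlap, but the log2 change of -0.53 was not called (limma's unadjusted p = 0.103), and the dimmer probe set gave 0.44. TIMM8B read 576, 467 and 543 in fed and 563, 421 and 502 in fasted isolates (log2 change -0.10). TIMM13, the partner of TIMM8, had a log2 change of 0.03, and TIMM8A2, which was dimmer than the median probe set, one of -0.31.

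The TIM22 complex inserts carriers into the inner membrane. TIMM22, its channel, read 66.8, 53.8 and 54 in fed and 22.9, 38.2 and 56.2 in fasted isolates. Fasted replicates 1 and 2 were below the fed arrays and fasted replicate 3 was within them, and the log2 change of -0.66 (SE 0.35) was not called (limma's unadjusted p = 0.103). The dimmer probe set of TIMM22 read 32.8, 46.7 and 39 in fed and 9.6, 18.4 and 31.6 in fasted isolates. It kept the same order of fasted arrays and was lower without overlap, at -1.14 (limma's unadjusted p = 0.049, adjusted p = 0.334). TIMM29, a subunit that links TIM22 to the TOM complex, read 272, 217 and 268 in fed and 259, 220 and 261 in fasted isolates (log2 change -0.03, 95% interval -0.35 to 0.28).

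The TIM23 complex takes presequence proteins. TIMM17A, a channel subunit, read 190, 183 and 188 in fed and 149, 169 and 144 in fasted isolates. The groups did not overlap, with a log2 change of -0.28 (SE 0.10, limma's unadjusted p = 0.0291, adjusted p = 0.294). This call was the least stable of the 9. It was lost in 11 of 17 alternative processings, among them those without fed replicate 1 (unadjusted p = 0.08), fed replicate 2 (0.0512), fed replicate 3 (0.0755) or fasted replicate 3 (0.0627). TIMM17B, the alternative form of the same subunit, read 61.1, 91 and 60.5 in fed and 69.2, 79.2 and 81.2 in fasted isolates (log2 change 0.13, 95% interval -0.36 to 0.62). The difference between the forms was not tested. The log2 changes of TIMM21, which links TIM23 to the TOM complex and to respiratory chain assembly, and of TIMM50, the presequence receptor, were -0.34 and 0.00. The probe set shared by TIMM23 and its copies, which is outside the 34, read 559, 554 and 583 in fed and 404, 479 and 485 in fasted isolates (log2 change -0.32, limma's unadjusted p = 0.0151), and the signals of TIMM23 and of its copies cannot be told apart.

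The import motor pulls the precursor inward with ATP. DNAJC19, the J-protein that starts the ATP hydrolysis of the motor HSP70, read 434, 364 and 435 in fed and 318, 282 and 326 in fasted isolates. Every fasted array was below every fed array, with a log2 change of -0.41 (SE 0.11, limma's unadjusted p = 0.00855, adjusted p = 0.234). TIMM44, the scaffold that tethers the motor to the channel, was measured by a dim probe set, with 7.27, 9.65 and 5.77 in fed and 3.28, 2.16 and 5.02 in fasted isolates. Its values did not overlap either, and its log2 change was -0.97 (SE 0.29, limma's unadjusted p = 0.0152, adjusted p = 0.27). The value of fasted replicate 2 was under the floor of 3.27 and was raised to it. With a floor at 7.53 the change of TIMM44 was -0.12 (limma's unadjusted p = 0.319), and its call was also lost without fasted replicate 1 (0.0516) or fasted replicate 2 (0.0561).

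HSPA9, mortalin, is the HSP70 of the motor. Its brightest probe set read 765, 751 and 774 in fed and 581, 954 and 1036 in fasted isolates. The fed values were close together, whereas fasted replicate 1 was below and fasted replicates 2 and 3 above all of them (log2 change 0.12, SE 0.22). A second probe set of HSPA9 showed the same split, with 318, 331 and 290 in fed and 177, 443 and 445 in fasted isolates (log2 change 0.07). So did the next one, with 50.4, 60.3 and 32.6 in fed and 24.8, 78.6 and 75.8 in fasted isolates (0.19). The dimmest went the other way, with 33.6, 24.6 and 28.5 in fed and 11.6, 14.1 and 22.3 in fasted isolates (-0.90, limma's unadjusted p = 0.0398). Without fasted replicate 1, HSPA9 was higher after fasting, with a log2 change of 0.38 (limma's unadjusted p = 0.00189, adjusted p = 0.201). GRPEL1, which reloads HSPA9 with ATP, read 332, 334 and 379 in fed and 309, 379 and 382 in fasted isolates (log2 change 0.03), and PAM16, the partner that restrains DNAJC19, had a log2 change of 0.00.

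The processing peptidase cuts off the presequence once the precursor is in the matrix. PMPCB, its catalytic subunit, read 164, 170 and 173 in fed and 80, 128 and 157 in fasted isolates. The fed arrays were nearly equal, and the fasted ones were all below them but widely spread, so that the log2 change of -0.53 (SE 0.25) was not called (limma's unadjusted p = 0.0735). Without fasted replicate 3 it was -0.74 and passed (limma's unadjusted p = 0.0198). In that comparison 24.1% of all genes were lower, against 14.9% with all arrays. PMPCA, the subunit that recognizes the presequence, read 82.2, 120 and 97.9 in fed and 65.1, 94.5 and 109 in fasted isolates (log2 change -0.17).

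**Figure D2:**
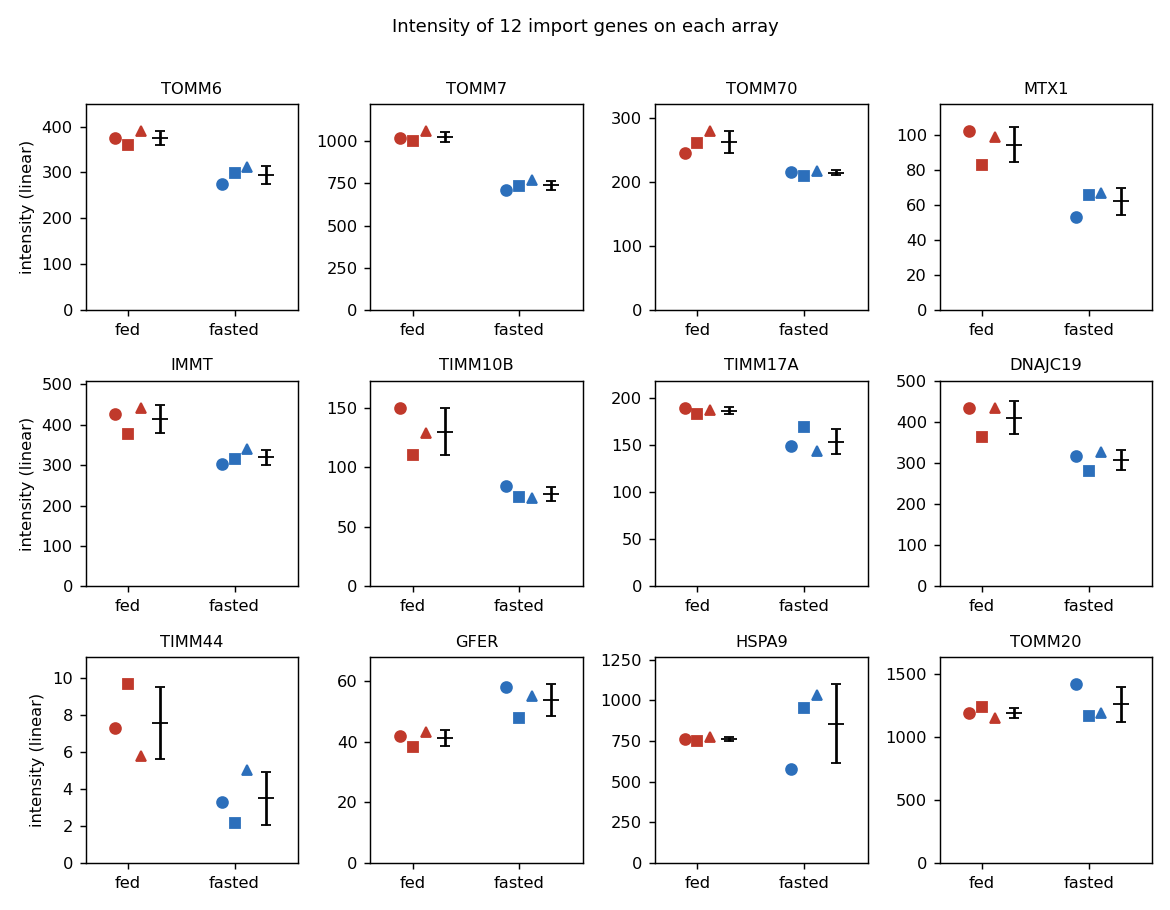
Linear intensity of 12 import genes on each array, with its own axis from 0 for each gene. Red symbols are fed and blue symbols fasted isolates (circle, square and triangle for replicates 1, 2 and 3), and the bars give mean ± SD (n = 3). The 9 lower genes and GFER show no overlap, whereas HSPA9 splits among the fasted isolates from 581 to 1036.

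Fasted replicate 1 was the lowest of the 6 arrays for 15 of the 34 members (44.1%), beside 42.6% of all genes. On the log2 scale the median deviation of the members from their own mean over the 6 arrays was 0.09, 0.07 and 0.12 in fed and -0.20, -0.10 and -0.02 in fasted isolates, beside 0.11, 0.09 and 0.09 in fed and -0.23, -0.10 and 0.04 in fasted isolates over all genes. Among the fasted isolates, replicate 1 was thus lowest and replicate 3 highest in both sets. The fed isolates differed, since fed replicate 3 was highest for the members and fed replicate 1 for all genes. The 13 members with several probe sets are a check on single values. In TOMM70, MTX1, TIMM8A1 and HSPA9 the probe sets disagreed in direction. In TIMM10B and TIMM22 they moved together, with the lowest values of each probe set in the fasted group. The probe sets of IMMT, PMPCB, TIMM44, TOMM20, TOMM34, TOMM40L and TIMM29 also agreed in the sign of their log2 change, called or not.

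**Figure D3:**
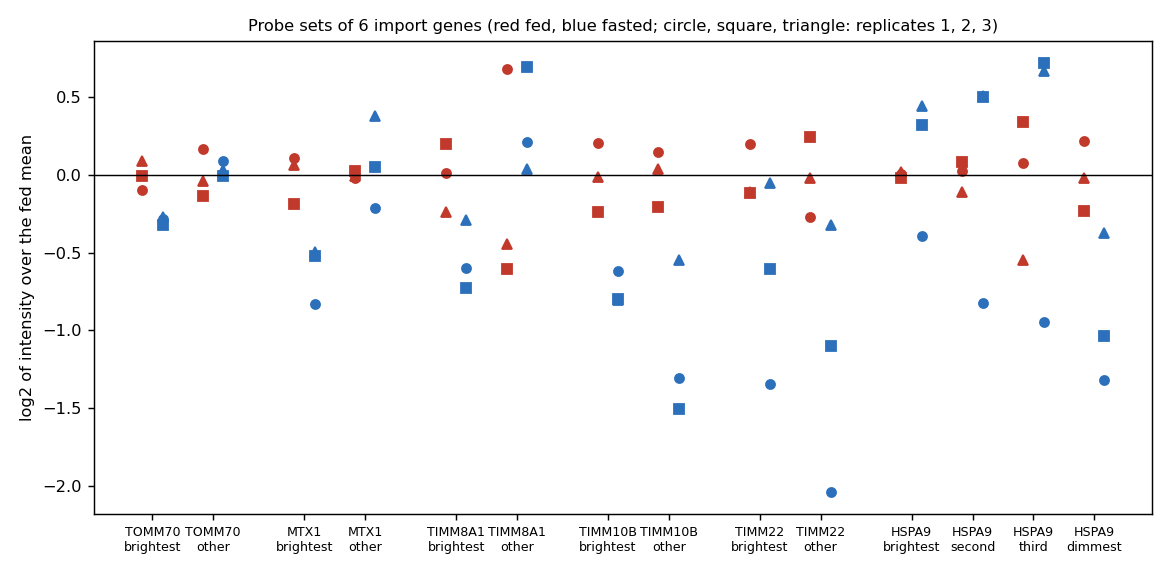
Log2 of intensity over the fed mean for each probe set of 6 import genes, by array (red fed, blue fasted, circle, square and triangle for replicates 1, 2 and 3). Both probe sets of TIMM10B lie below 0 in every fasted isolate, those of TOMM70 and MTX1 differ from each other, and 3 of 4 probe sets of HSPA9 place fasted replicate 1 below and the other fasted isolates above the fed mean.

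Because the fasted arrays were dimmer as a whole, the comparison was repeated on quantile-normalized arrays and on arrays brought to an equal 75th percentile. The median change of all genes then became -0.01 and 0.03, and that of the import genes 0.04 and 0.11. Negative changes went from 24 of 34 to 16 and 15. Over all genes they were counted only as deposited (9521 of 14217). The median of the import genes was thus above that of all genes on each of the 3 scales. Lower members numbered 7 of 34 on quantile-normalized arrays, beside 9.14% of all genes, and 3 of 34 (8.82%) on arrays scaled to the 75th percentile, beside 7.33% of all genes, so that the last share was near the background. MTX1, TIMM10B and TIMM44 were lower under both scalings (log2 changes of -0.36, -0.48 and -0.77 after scaling to the 75th percentile). TOMM6, TOMM7, IMMT and DNAJC19 were lower after quantile normalization but not after the 75th percentile scaling, where TOMM7 was at -0.23 (limma's unadjusted p = 0.0611). TOMM70 and TIMM17A were called under neither. GFER was higher under both, at 0.62 and 0.62 (limma's unadjusted p = 0.0151 and 0.0142), as was TOMM22, at 0.24 and 0.33 (0.038 and 0.0186). GRPEL1 was higher after scaling to the 75th percentile alone, at 0.27 (0.0358). Over all 14217 genes, those higher with a fold of at least 1.5 went from 326 as deposited to 573 and 671. The share of all genes higher without the fold was not computed under these scalings.

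**Figure D4:**
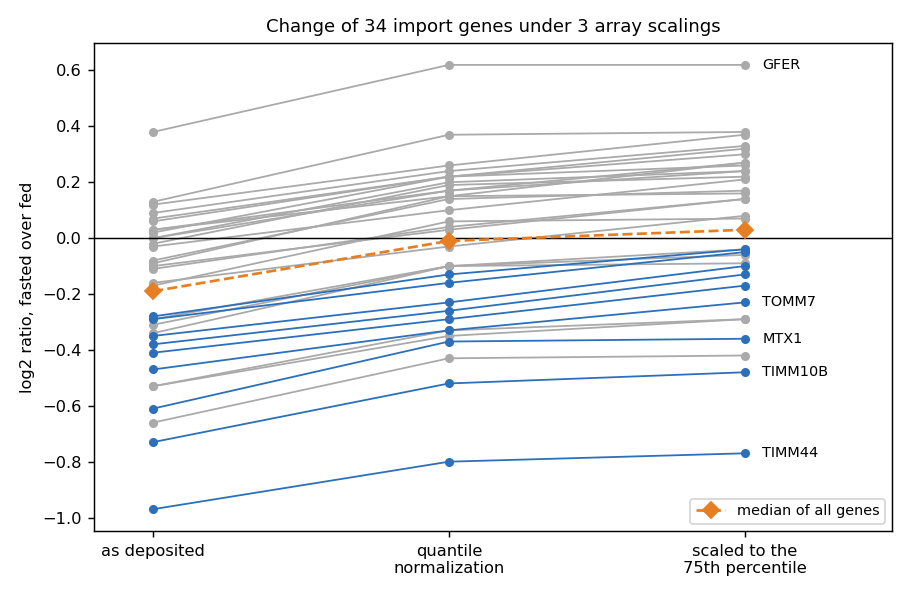
Log2 of fasted over fed intensity in the 34 import genes, as deposited, on quantile-normalized arrays and on arrays scaled to their 75th percentile. Blue lines are the 9 genes lower as deposited and orange diamonds the median of all genes, which moves from -0.19 to -0.01 and 0.03. All genes have a higher ratio after quantile normalization than as deposited, TIMM44, TIMM10B and MTX1 stay lowest among the 9, and GFER lies above the other members at 0.62.

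Genes that work with imported proteins were counted at the same threshold on arrays as deposited, each list by symbol. Over all genes, 14.9% were lower and 3.64% higher at this threshold. Among 13 genes of matrix folding and presequence processing, 5 were lower (38.5%) and 1 was higher (7.69%), with a median log2 change of -0.30. TRAP1, the mitochondrial HSP90, read 102, 94.5 and 107 in fed and 73.2, 70.1 and 71.1 in fasted isolates, a log2 change of -0.50 (limma's unadjusted p = 0.00457). DNLZ, which keeps HSPA9 soluble, was at -0.74 (0.00503). IMMP2L, a subunit of the inner membrane peptidase, was higher but uneven, with 29.8, 22.8 and 25 in fed and 209, 127 and 35.9 in fasted isolates (1.94, limma's unadjusted p = 0.0206). Of 8 MICOS and cristae genes besides IMMT, 3 were lower (37.5%) and 0 higher (median -0.38). These were the MICOS subunits CHCHD6 (-0.47), MICOS13 (-0.44) and APOO (-0.37).

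Of 16 genes of inner membrane insertion and quality control, 4 were lower (25%, beside 14.9% of all genes) and 0 higher (median -0.17). Among the lower ones was BCS1L, an assembly factor of complex III, at -1.47 (limma's unadjusted p = 0.00276). Of 17 outer membrane channel and dynamics genes, only RHOT2, a GTPase of mitochondrial transport, was lower (-0.58) and 0 were higher (median -0.05). This lower share of 5.88% was below that of all genes. Of 8 cytosolic chaperones of precursors, 2 were lower (25%) and 0 higher (median -0.08). These were STIP1, which joins HSP70 to HSP90, at -0.64, and HSP90AB1 at -0.46. After quantile normalization and scaling to the 75th percentile, the median of all genes was -0.01 and 0.03. The medians were then -0.13 and -0.06 for matrix folding and -0.18 and -0.13 for MICOS and cristae. They were 0.00 and 0.07 for inner membrane insertion, 0.13 and 0.19 for the outer membrane and 0.06 and 0.17 for cytosolic chaperones.

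Among the destinations of import, 32 of 79 respiratory chain and ATP synthase genes were lower and 2 higher (median -0.19), 26 of 73 mitochondrial ribosomal protein genes were lower and 0 higher (median -0.35), and 10 of 40 carrier genes were lower and 1 higher (median -0.26). These shares were 40.5%, 35.6% and 25%, beside the 26.5% of the import genes and the 14.9% of all genes. They hold for arrays as deposited. After quantile normalization the medians of the 3 lists became -0.07, -0.14 and -0.06, beside -0.01 for all genes. After scaling to the 75th percentile the medians became 0.05, -0.10 and -0.02, beside 0.03 for all genes. Of 16 regulators of mitochondrial biogenesis, 2 were lower and 1 was higher (median -0.38). These are 12.5% and 6.25%, beside 14.9% and 3.64% of all genes, so that the lower share was near the background. MYC, a transcription factor of growth, read 113, 125 and 138 in fed and 34, 71.7 and 66.1 in fasted isolates (-1.20, limma's unadjusted p = 0.00668). PPRC1, a coactivator related to PGC-1, was at -0.94 (0.00703). TWNK, the helicase of mitochondrial DNA, was higher at 0.70 (0.0437).

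Among 11 genes of the mitochondrial stress response, 4 were higher (36.4%, beside 3.64% of all genes) and 1 was lower (9.09%, beside 14.9%), with a median of 0.00. ATF5, a transcription factor of the mitochondrial unfolded protein response that is itself controlled by its import into mitochondria in related systems, read 655, 607 and 683 in fed and 897, 938 and 910 in fasted isolates. The groups were far apart, with a log2 change of 0.50 (limma's unadjusted p = 0.00044, adjusted p = 0.155). SESN2 and ASNS, targets of ATF4, were higher at 0.38 and 0.37. The other called genes of this list, named after their values were seen, were TRIB3, higher at 0.70, and DDIT4, lower at -0.98 (limma's unadjusted p = 0.029 and 0.0327). ATF4 itself was at -0.01, CHAC1 at -0.15 and DDIT3 at -0.13, without a call. HSPA9 and GRPEL1, import genes that are also known as chaperones of mitochondrial stress, were not called as deposited. TRAP1 of the matrix folding list was lower, and so was HSPD1 at -0.46 (limma's unadjusted p = 0.031). HSPE1 of that list, at 0.15, was not called, nor were CLPP (-0.20) and LONP1 (-0.49) of the quality control list. HSPD1, HSPE1, CLPP and LONP1 were named after their values were seen. What the higher genes of the stress list reflect was not tested.

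**Figure D5:**
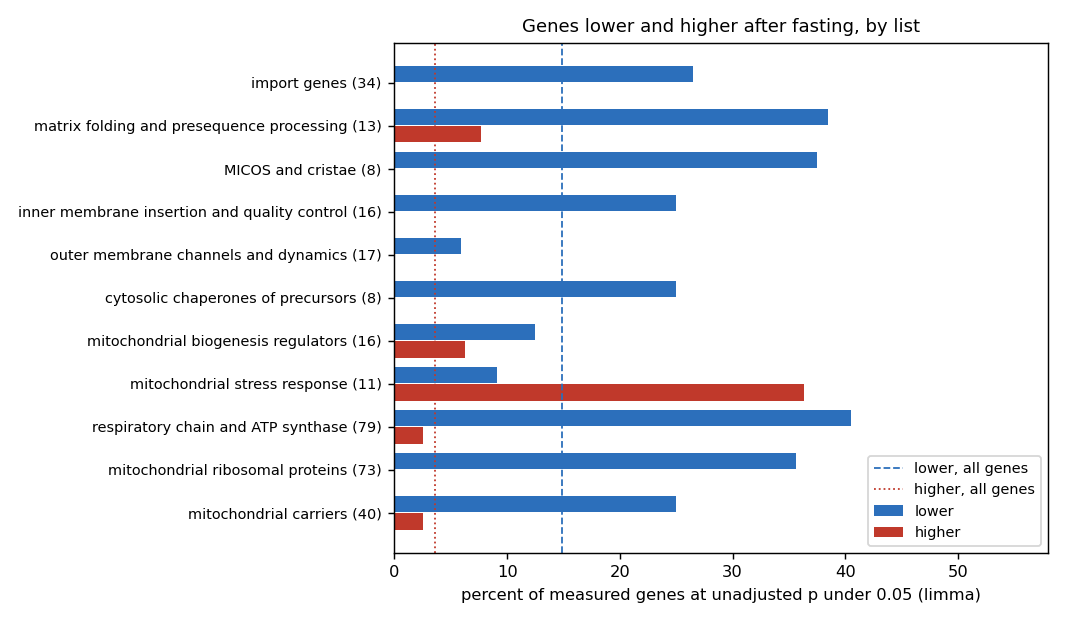
Percent of measured genes lower (blue) and higher (red) after fasting at limma's unadjusted p under 0.05, for the import genes and 10 related lists (number of genes in brackets). Vertical lines give the shares of all genes, 14.9% lower and 3.64% higher. Of the respiratory chain genes 40.5% were lower, and of the mitochondrial stress response genes 36.4% were higher.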

How the data were processed

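The authors deposited linear intensities of 31099 probe sets on 6 arrays, made with model-based analysis in dChip, with the array of median intensity as the baseline of normalization and the mismatch probes as background. The dChip version is not given in the sources used here. Besides 57 controls, 31042 probe sets were listed. The controls were left out, 3.27 (the 10th percentile) was set as the floor, and log2 values computed from the deposited intensities were compared with limma (version 3.58.1, R 4.3.3) by lmFit and a trended eBayes, two-sided. The methods name no test for this comparison, so limma was used with the study's thresholds of 1.5-fold and p of 0.05. The floor understates the change of dim genes. In the platform annotation 20826 probe sets had 1 symbol, 436 several and 9780 none, and only the first were named. All 34 members matched the rat gene table (GRCr8) by gene number, and 0 symbols changed. Symbols are written in capitals.

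The members and gene lists were chosen with earlier results of these data known. Values on every array are given for each import gene that was called, that did not overlap by at least 1.25-fold, that was the brightest of its role or whose probe sets disagreed, and for some others. Of other lists only genes among the 3 with the largest moderated t are named. Exceptions are stress response genes, cell type markers and HSPD1, HSPE1, CLPP and LONP1. Proteins were not analysed here. As alternatives, linear values were compared by Welch's test, probe sets dimmer than the median one (20.2) were dropped, the floor was moved to the 25th percentile (7.53) or replaced by a pseudocount of 3.27, arrays were quantile-normalized or brought to an equal 75th percentile, the trend was dropped, variance was made robust, arrays were weighted, the replicate number was blocked, all probe sets of a gene were averaged, and each replicate was left out. The fit was tested on simulated data. Plots used matplotlib 3.10.9 (Python 3.11.15). Isolates are described as independent. Scan dates were not used, and scan batches were not tested.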

Additional observations from a re-analysis of the deposited data

How the results depend on the processing

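The median log2 change of the 34 import genes, -0.13 as described, turned to 0.04 with quantile normalization and 0.11 with scaling to the 75th percentile, and ranged from -0.23 to -0.10 when each replicate was left out. The 9 genes lower at unadjusted p under 0.05 (26.5%, beside 14.9% of all genes) became 3 after scaling to the 75th percentile (8.82%, beside 7.33%) and 15 with array weights (44.1%, beside 36.7%). They were 7 to 10 without each replicate, beside 7.65% to 24.1% of all genes. The 10 came without fasted replicate 3, where the share of all genes was 24.1%. With probe sets brighter than the median one, 7 of 31 members were lower, beside 20.3% of such genes. The 3 lower with a fold of at least 1.5 became 1 with a pseudocount, with quantile normalization, with scaling to the 75th percentile and with the mean of all probe sets. The shares of all genes there were 10.7%, 5.12%, 4.49% and 9.89%. Lower members past the fold were 1 to 5 when each replicate was left out. Without fasted replicate 1 there was 1 (TIMM10B), beside 6.03% of all genes. Without fasted replicate 3 there were 5 (TIMM22 and PMPCB added), beside 18.7% of all genes. Higher genes, 0 as described, were 1 by Welch's test and 1 with a floor at the 25th percentile (GFER in both), 2 with quantile normalization, 3 with scaling to the 75th percentile, 2 with array weights and 0 to 2 without each replicate, with TOMM22 and HSPA9 higher without fasted replicate 1. The share of all genes higher at this threshold was computed only as described (3.64%). With the fold, 1 (GFER) was higher with quantile normalization and 1 with scaling to the 75th percentile, beside 573 and 671 of 14217 genes. Over all genes 326 were higher with the fold as described, and 1023 with array weights. Without each replicate, 0 to 0 were higher with the fold. Genes past an adjusted p of 0.05 were 0 as described, 0 to 0 without each replicate, 1 (TOMM7) with probe sets brighter than the median one, where 96 of 9198 genes passed, and 14 with array weights, where 5188 of 14217 genes passed. These weights did not converge and gave fasted replicate 2 a weight of 11.9, so the 14 and the 15 rest on that array. With the replicate block, 8 genes were lower, 3 of them past the fold, beside 11.9% and 7.8% of all genes, and 0 passed adjustment. TIMM17A was the call lost. The correlations of deviations between fed and fasted arrays of replicates 1, 2 and 3 were 0.000117, 0.0107 and -0.0531. No shared deviation was thus seen by replicate number. With 3 arrays per group this cannot settle whether isolates were handled in pairs. Except where construction shows it, the cause of these shifts was not tested. The signal limits dim genes: 3 members (TOMM40L, TIMM8A2 and TIMM44) were dimmer than the median probe set.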
